A study of Mus musculus with 6 samples.

Results

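Macrophage and monocyte genes were read in Tregs sorted from B16 melanoma tumors, to ask how much myeloid RNA the sorted cells carry, which of these genes vary together, and whether their values differ when Tregs lack the glucocorticoid receptor (GR). A list of 38 genes was taken by symbol, without genes of MHC class II, and 36 of them have a row among the 12153 genes of the table. *Itgax*, which encodes CD11c, and *Cd163*, a scavenger receptor for hemoglobin that glucocorticoids are known to induce in macrophages, have no row and were not analysed. Each of the 6 libraries holds Tregs from B16.F10 tumors at day 15 after inoculation. The 3 control libraries came from Nr3c1-flox/flox mice and the 3 *Nr3c1* Foxp3-Cre libraries from Nr3c1-flox/flox Foxp3-YFP/Cre mice, in which *Foxp3* drives YFP and Cre so that *Nr3c1*, the GR gene, is deleted in Tregs. Both groups carry floxed *Nr3c1*, and only the second is labelled with the Cre allele. *Nr3c1* was at 7.15, 7.59 and 6.88 log2 CPM in control libraries and 6.14, 5.45 and 5.90 in *Nr3c1* Foxp3-Cre libraries, so residual *Nr3c1* RNA was present. The study used mice of both sexes without labelling the libraries by sex or age, and nothing read here says whether a library came from one mouse or several, so p-values measure the spread between these libraries.

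Macrophages and monocytes are phagocytes that take up cells, microbes and lipid, degrade them in lysosomes, and signal through Fc receptors and pattern receptors coupled to ITAM adapters. They depend on the growth factor receptor encoded by *Csf1r* and on the transcription factor PU.1 (*Spi1*), and in tumors they are a main source of complement C1q and of monocyte-attracting chemokines. Tregs are CD4 T cells defined by *Foxp3* and are not known as a source of C1q or *Csf1r*. Some other genes of the list are less restricted: cathepsin B is made by most cells, galectin-3 (*Lgals3*) also by activated T cells, and *Apoe* also by melanoma cells.

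The label of the sort was checked against markers. All 9 Treg and T cell markers had values, *Foxp3* between 3.39 and 4.47 log2 CPM and *Cd4* between 8.69 and 9.33, and their summed level was 3933 to 5362 CPM in control libraries and 4075 to 4793 CPM in *Nr3c1* Foxp3-Cre libraries. All 10 myeloid genes set to define macrophages also had values. They summed to 378 to 565 CPM in control libraries and 270 to 546 CPM in *Nr3c1* Foxp3-Cre libraries. The 36 genes of the list summed to 2883 to 3506 CPM and 2382 to 3452 CPM in the same order, with *Ctsb*, *Ctss* and *Lyz2* the highest. These sums do not give a share of cells. The study's methods describe a gate that removed cells stained for CD11b, CD11c, B220, NK1.1 or γδ TCR and then took Foxp3-YFP+ cells, while the sample labels name CD45, CD4 and CD25 only, and the control genotype as labelled has no YFP allele. *Itgam*, which encodes CD11b, was at 3.18, 2.64 and 2.74 log2 CPM in control libraries and 3.17, 2.87 and 2.20 in *Nr3c1* Foxp3-Cre libraries. RNA of a gene whose protein the described gate removes was thus measured in each library, and the groups overlapped (log2 fold change -0.10, with a standard error, SE, of 0.31 from limma).

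Per kilobase of annotated exon, *Ctss*, *Ctsb* and *Lyz2* had the highest levels of the 36 genes in control libraries, with geometric means of 274, 242 and 180 CPM per kb. *C1qb* stood at 57.8, *Cd68* at 33.8, *Csf1r* at 3.07, *Itgam* at 1.44 and *Mpeg1* at 0.326 CPM per kb. The most abundant genes by this scale are therefore lysosomal, and the receptor genes that define macrophages were low.

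The 3 C1q genes lie side by side on chromosome 4 of mm10, with gaps of 2.85 kb between *C1qa* and *C1qc* and 3.62 kb between *C1qc* and *C1qb*, all on the minus strand. Because their mean is the reference for the other genes below, the 250 bases before the RefSeq start sites (GRCm38.p6) of the pair for which a promoter was held are shown here, written 5′ to 3′ on the gene's strand. Capitals mark GAGGAA or its reverse complement TTCCTC, the core of the purine-rich box that PU.1 binds, at position -30 from the start in *C1qb* and -193 in *C1qc*. The windows are chr4:136886201-136886450 for *C1qb* and chr4:136892915-136893164 for *C1qc*, both on the minus strand.
C1qb: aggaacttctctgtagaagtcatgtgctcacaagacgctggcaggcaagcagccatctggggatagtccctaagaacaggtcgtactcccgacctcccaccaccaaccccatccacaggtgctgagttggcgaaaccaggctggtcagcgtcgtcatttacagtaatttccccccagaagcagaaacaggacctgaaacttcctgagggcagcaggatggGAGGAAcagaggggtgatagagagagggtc
C1qc: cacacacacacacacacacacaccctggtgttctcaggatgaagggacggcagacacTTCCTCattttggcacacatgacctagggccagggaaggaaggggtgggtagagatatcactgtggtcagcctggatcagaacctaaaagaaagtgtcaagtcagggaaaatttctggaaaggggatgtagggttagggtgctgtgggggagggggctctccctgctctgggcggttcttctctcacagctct
RefSeq promoters matched by symbol were used for 23 of the 36 genes. Of their 27 promoters 14, or 51.9%, held the 6-letter core on either strand within 250 bases, as did 23.3% of all 32851 promoters of the same length. Alternative start sites of one gene overlap in this count. A match is a description of the letters and not a bound site.

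Across the table, limma's moderated test put 7 genes at an adjusted p under 0.05, 1 higher (0.00823% of genes) and 6 lower (0.0494%) in *Nr3c1* Foxp3-Cre Tregs, and none of the 36 myeloid genes was among them. The deleted gene *Nr3c1* was not among them either, at a log2 fold change of -1.38 (SE 0.21, limma adjusted p = 0.120) without overlap. A gene that is not called here can therefore still differ. The smallest adjusted p of the list by limma was 0.853, for *Cxcl2*, so p-values of the other genes are given unadjusted. An unadjusted p under 0.05 was found for 6 of the 36 genes, or 16.7%, all with lower means in *Nr3c1* Foxp3-Cre Tregs, where 1.65% of all genes were lower and 1.61% higher at that level. The groups did not overlap for 6 genes, again all lower, against 3.73% of all genes lower and 3.69% higher. A log2 fold change below 0 was found for 35 of the 36, or 97.2%, against 50.5% of all genes (49.5% were above 0), and the median was -0.40, against -0.0015 over all genes. The 36 genes were read in the same 6 libraries, so they are not separate observations. In sorted bulk cells, fewer myeloid cells, less RNA per cell, and changed RNA of Tregs or other cells cannot be told apart. Only the *Nr3c1* Foxp3-Cre group is labelled with the Cre allele, and the gate used for the control libraries is not clear. A difference in the sort or from that allele thus cannot be told apart from loss of GR.

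**Figure D1:**
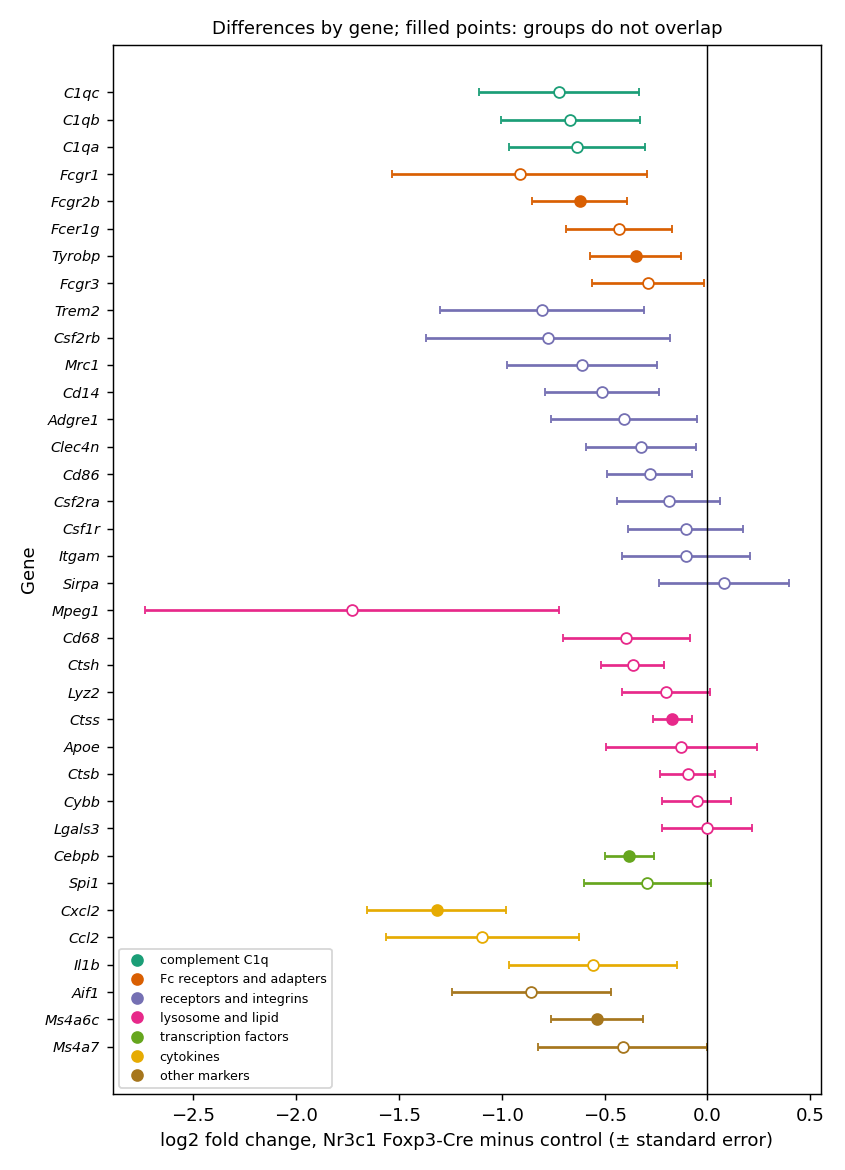
Log2 fold change (x axis, *Nr3c1* Foxp3-Cre minus control, log2 CPM) of each of the 36 genes (y axis), colored by role, with bars of 1 standard error from limma. Filled points mark the 6 genes whose groups did not overlap, and 35 of the 36 points lie below 0.

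The C1q subunits, which together form the molecule that starts the classical complement pathway, gave the clearest picture of how the libraries differ. *C1qb* (ENSMUSG00000036905.8) was at 6.31, 5.42 and 6.19 log2 CPM in control libraries 1, 2 and 3 and at 4.71, 6.08 and 5.14 in *Nr3c1* Foxp3-Cre libraries 1, 2 and 3. *C1qc* was at 5.92, 4.99 and 5.62 in control libraries and 4.20, 5.77 and 4.41 in *Nr3c1* Foxp3-Cre libraries. *C1qa* was at 4.56, 3.67 and 4.53 and at 2.99, 4.06 and 3.81 in the same order. In each subunit control library 1 was the highest and *Nr3c1* Foxp3-Cre library 1 the lowest, and the second *Nr3c1* Foxp3-Cre library lay above control library 2, so the groups overlapped. The log2 fold change was -0.67 for *C1qb* (SE 0.34), -0.72 for *C1qc* (SE 0.39) and -0.63 for *C1qa* (SE 0.33), or 1.59-, 1.65- and 1.55-fold lower. These differences were close to the SD of 0.56 to 0.85 between *Nr3c1* Foxp3-Cre libraries. For *C1qb* the log2 fold change was -0.37 without *Nr3c1* Foxp3-Cre replicate 1 and -1.05 without replicate 2 of that genotype.

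Of the Fc receptors and their adapters, all 5 had log2 fold changes below 0, with a median of -0.43. *Tyrobp*, the ITAM adapter of myeloid receptors also called DAP12, was at 3.65, 3.36 and 3.54 log2 CPM in control libraries and 2.91, 3.27 and 3.33 in *Nr3c1* Foxp3-Cre libraries. The groups did not overlap, although the gap between them was only from 3.33 to 3.36. *Fcgr2b*, the inhibitory receptor for IgG, was at 4.11, 3.52 and 4.10 in control libraries and 3.15, 3.22 and 3.49 in *Nr3c1* Foxp3-Cre libraries. Its log2 fold change was -0.62 (SE 0.23, limma unadjusted p = 0.0244), and the groups did not overlap. *Fcgr3*, an activating IgG receptor that lies 74.6 kb away on chromosome 1 and resembles it in its outer part, had a log2 fold change of -0.29 (SE 0.27), and reads of the pair could be split between them in counting. *Fcer1g*, the common γ chain of activating Fc receptors, was at 4.46, 3.58 and 4.18 against 3.43, 3.91 and 3.60, with overlap. *Fcgr1*, the high-affinity IgG receptor, was at 2.25, 1.48 and 2.14 in control libraries and -0.53, 1.85 and 1.82 in *Nr3c1* Foxp3-Cre libraries. Its log2 fold change of -0.91 (SE 0.62) came mainly from the first *Nr3c1* Foxp3-Cre library and was -0.12 without it.

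Among the 11 receptors and integrins measured, 10 had log2 fold changes below 0, and the groups overlapped for each of them. *Csf1r*, the receptor for CSF1 and IL-34 that macrophages need to survive, was at 4.35, 3.72 and 4.37 log2 CPM in control libraries and 3.87, 4.59 and 3.67 in *Nr3c1* Foxp3-Cre libraries. Its log2 fold change of -0.10 (SE 0.28) was smaller than the SD of 0.37 and 0.48 within the groups. *Adgre1*, which encodes F4/80, was at 4.18, 3.41 and 4.14 in control libraries and 3.14, 4.30 and 3.08 in *Nr3c1* Foxp3-Cre libraries, so its highest value was in a *Nr3c1* Foxp3-Cre library. *Trem2*, a lipid receptor of tumor macrophages, had a log2 fold change of -0.80 (SE 0.50), *Mrc1*, the mannose receptor CD206, -0.61 (SE 0.37) and *Cd14*, the coreceptor for lipopolysaccharide, -0.51 (SE 0.28). *Csf2rb*, the shared β chain of the GM-CSF, IL-3 and IL-5 receptors, was at 1.99, 1.94 and 2.06 in control libraries and 2.18, -0.33 and 1.81 in *Nr3c1* Foxp3-Cre libraries. One library therefore carried its log2 fold change of -0.78 (SE 0.59), which was -0.00054 without *Nr3c1* Foxp3-Cre replicate 2. *Sirpa*, the receptor for the CD47 signal that restrains phagocytosis, was the single gene with a higher mean in *Nr3c1* Foxp3-Cre Tregs, at a log2 fold change of 0.081 (SE 0.32). The remaining receptors, *Clec4n* (dectin-2), *Cd86* (a ligand of CD28) and *Csf2ra* (the α chain of the GM-CSF receptor), lay between -0.32 and -0.19.

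As a group, the lysosomal and secreted genes were the most abundant and differed least by median, at a log2 fold change of -0.17 over 9 genes. *Mpeg1*, described below, is among the 9 and was an exception in both level and difference. *Lyz2*, lysozyme of macrophages and granulocytes, was at 8.18, 7.75 and 7.73 log2 CPM in control libraries and 7.34, 8.21 and 7.50 in *Nr3c1* Foxp3-Cre libraries. *Cd68*, a lysosomal membrane protein, was at 5.76, 5.18 and 5.28 against 4.46, 5.78 and 4.80. In both genes the second *Nr3c1* Foxp3-Cre library was the highest of all 6 and the first the lowest. *Ctss*, a cathepsin that trims the MHC class II invariant chain, was at 8.50, 8.59 and 8.53 in control libraries and 8.24, 8.43 and 8.44 in *Nr3c1* Foxp3-Cre libraries. Those groups did not overlap, at a log2 fold change of only -0.17 (SE 0.096, limma unadjusted p = 0.107). *Ctsh*, another cysteine cathepsin, was at 5.32, 5.27 and 5.01 in control libraries and 4.73, 4.76 and 5.02 in *Nr3c1* Foxp3-Cre libraries, and its log2 fold change was -0.36 (SE 0.15, limma unadjusted p = 0.0397) and an overlap of 1 library each. *Ctsb* (-0.096), *Apoe* (-0.13), *Cybb*, the catalytic subunit of the phagocyte oxidase (-0.053), and *Lgals3* (-0.0040) had log2 fold changes within their standard errors.

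*Mpeg1*, the pore-forming perforin-2 of macrophages, had the largest log2 fold change of the list, -1.73 (SE 1.01, limma unadjusted p = 0.119). Its values were 0.29, 0.64 and 0.56 log2 CPM in control libraries and 0.32, -3.96 and -0.054 in *Nr3c1* Foxp3-Cre libraries. The value of -3.96 is the lowest that the second *Nr3c1* Foxp3-Cre library holds, which 11 genes share there. Without that library the log2 fold change was -0.36, and on the scale of log2(CPM + 1) it was -0.53. The size of the *Mpeg1* difference therefore rests on 1 library at its floor.

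Both transcription factors had lower means in *Nr3c1* Foxp3-Cre Tregs. *Cebpb*, a factor of monocyte activation that other cells express too, was at 6.74, 7.14 and 7.05 log2 CPM in control libraries and 6.56, 6.58 and 6.64 in *Nr3c1* Foxp3-Cre libraries. The groups did not overlap and the log2 fold change was -0.38 (SE 0.12, limma unadjusted p = 0.0112). *Spi1* was at 3.25, 2.60 and 2.73 against 2.22, 2.43 and 3.06, with overlap and a log2 fold change of -0.29 (SE 0.31).

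The 3 cytokine genes had the largest median difference of any role, at a log2 fold change of -1.09. *Cxcl2*, a chemokine that draws neutrophils, was at 3.28, 4.60 and 3.70 log2 CPM in control libraries and 2.83, 2.44 and 2.36 in *Nr3c1* Foxp3-Cre libraries. Each *Nr3c1* Foxp3-Cre library lay below each control library, and the log2 fold change was -1.32 (SE 0.34, limma unadjusted p = 0.00351, adjusted p = 0.853), or 2.49-fold lower. *Ccl2*, the main chemokine for monocytes that carry CCR2, was at 5.30, 4.11 and 4.11 in control libraries and 2.85, 4.50 and 2.89 in *Nr3c1* Foxp3-Cre libraries. Its log2 fold change was -1.09 (SE 0.47, limma unadjusted p = 0.0444), and its groups overlapped through the second *Nr3c1* Foxp3-Cre library. *Il1b*, the inflammasome cytokine, was at 1.68, 2.69 and 1.90 against 1.41, 1.04 and 2.15, with overlap. *Cxcl2* and *Il1b* were both highest in control library 2, in which the C1q genes were the lowest of the control libraries.

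Of the other marker genes, *Ms4a6c*, a tetraspan membrane protein of monocytes, was at 3.73, 3.53 and 3.87 log2 CPM in control libraries and 2.86, 3.30 and 3.36 in *Nr3c1* Foxp3-Cre libraries. The groups did not overlap (log2 fold change -0.54, SE 0.23, limma unadjusted p = 0.0398), and near relatives of the same gene cluster on chromosome 19 could share its reads. *Aif1*, the calcium-binding protein IBA1 of macrophages and microglia, was at 2.56, 1.59 and 2.97 in control libraries and 1.35, 1.60 and 1.60 in *Nr3c1* Foxp3-Cre libraries. Control library 2 was as low as the *Nr3c1* Foxp3-Cre libraries. *Ms4a7*, a relative found in mature macrophages, had a log2 fold change of -0.41 (SE 0.41). For each of the 6 genes whose groups did not overlap, *Tyrobp*, *Fcgr2b*, *Ctss*, *Cebpb*, *Cxcl2* and *Ms4a6c*, an exact two-sided permutation test gives p = 0.1, the smallest that 3 libraries against 3 allow.

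**Figure D2:**
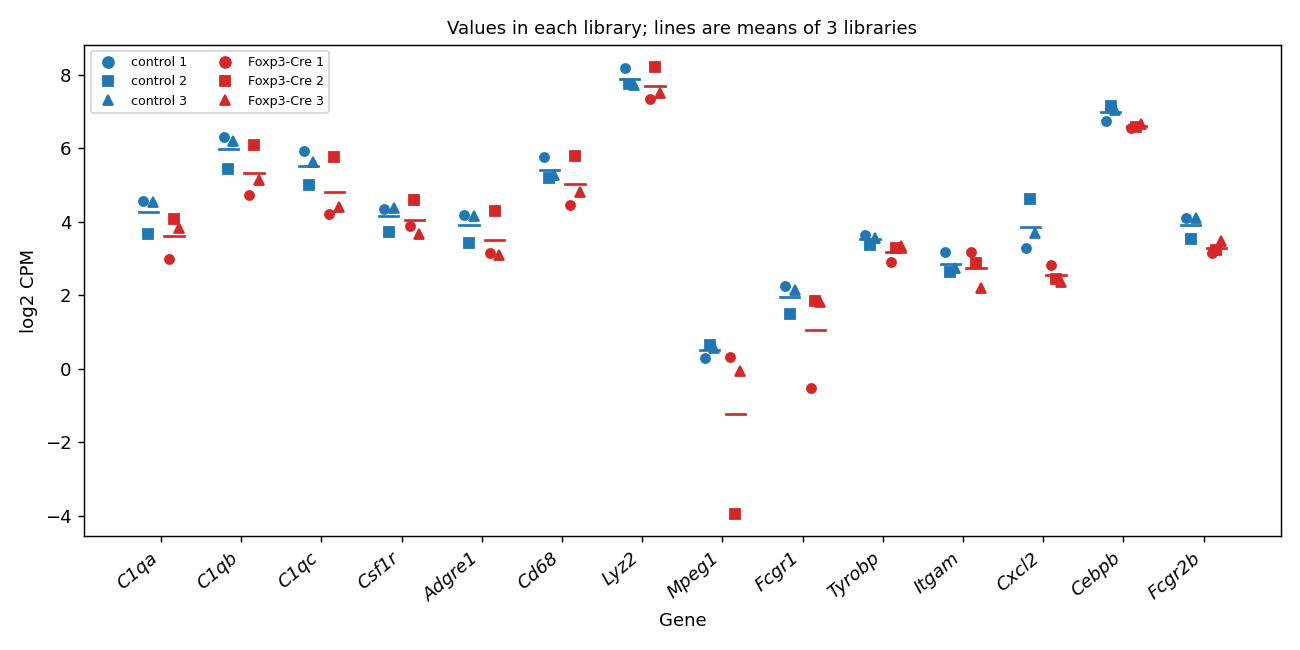
Log2 CPM (y axis) in each library for the 10 defining genes, *Itgam* and 3 of the genes whose groups did not overlap (x axis), with blue for control, red for *Nr3c1* Foxp3-Cre, a marker shape per replicate number and lines for means of 3 libraries. The red squares of *C1qb*, *C1qc*, *Cd68* and *Lyz2* lie within or above the blue points, and the *Mpeg1* square is at its library's floor of -3.96.

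The spread over libraries showed which genes moved together. The range over the 6 libraries had a median of 1.09 log2 units in the 36 genes and 0.57 over all genes. *Nr3c1* Foxp3-Cre library 1 was the lowest of all 6 for 26 of the 36 genes, against 18.7% of all genes, and control library 1 the highest for 16, against 19.8%. Each of the 36 genes had its lowest value in one of the *Nr3c1* Foxp3-Cre libraries, where 50.6% of all genes did. Inside the *Nr3c1* Foxp3-Cre group, library 2 was the highest for 23 of the 36 genes, against 33.7% of all genes. Inside the control group, library 2 was the lowest for 22, against 37.1%.

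Each gene was then set against the mean of the 3 C1q genes, which was 5.60, 4.69 and 5.45 log2 CPM in control libraries and 3.97, 5.30 and 4.45 in *Nr3c1* Foxp3-Cre libraries. Of the 15 pairs of libraries, at least 12 were ordered as in the C1q mean for 15 of the 33 other genes, and for 10.2% of all genes. These pairs include those of a control with a *Nr3c1* Foxp3-Cre library, so genes lower in the second group tend to score high. The count therefore does not separate variation shared between replicates from the shared difference between groups. *Fcer1g*, *Fcgr3*, *Fcgr1* and *Ccl2* matched 14 of the 15 pairs, and *Cd68*, *Tyrobp*, *Ctsb*, *Fcgr2b*, *Ms4a7*, *Aif1*, *Mrc1* and *Trem2* matched 13. By size as well as order, *Ms4a7* and *Adgre1* were nearest, with root mean square differences of 0.18 and 0.21 log2 units between centered values over 6 libraries. *Mpeg1*, *Il1b* and *Csf2rb* matched 7 of the 15 pairs and *Cxcl2* and *Clec4n* 9, so the inflammatory pair *Il1b* and *Cxcl2* did not share the order of the C1q genes.

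**Figure D3:**
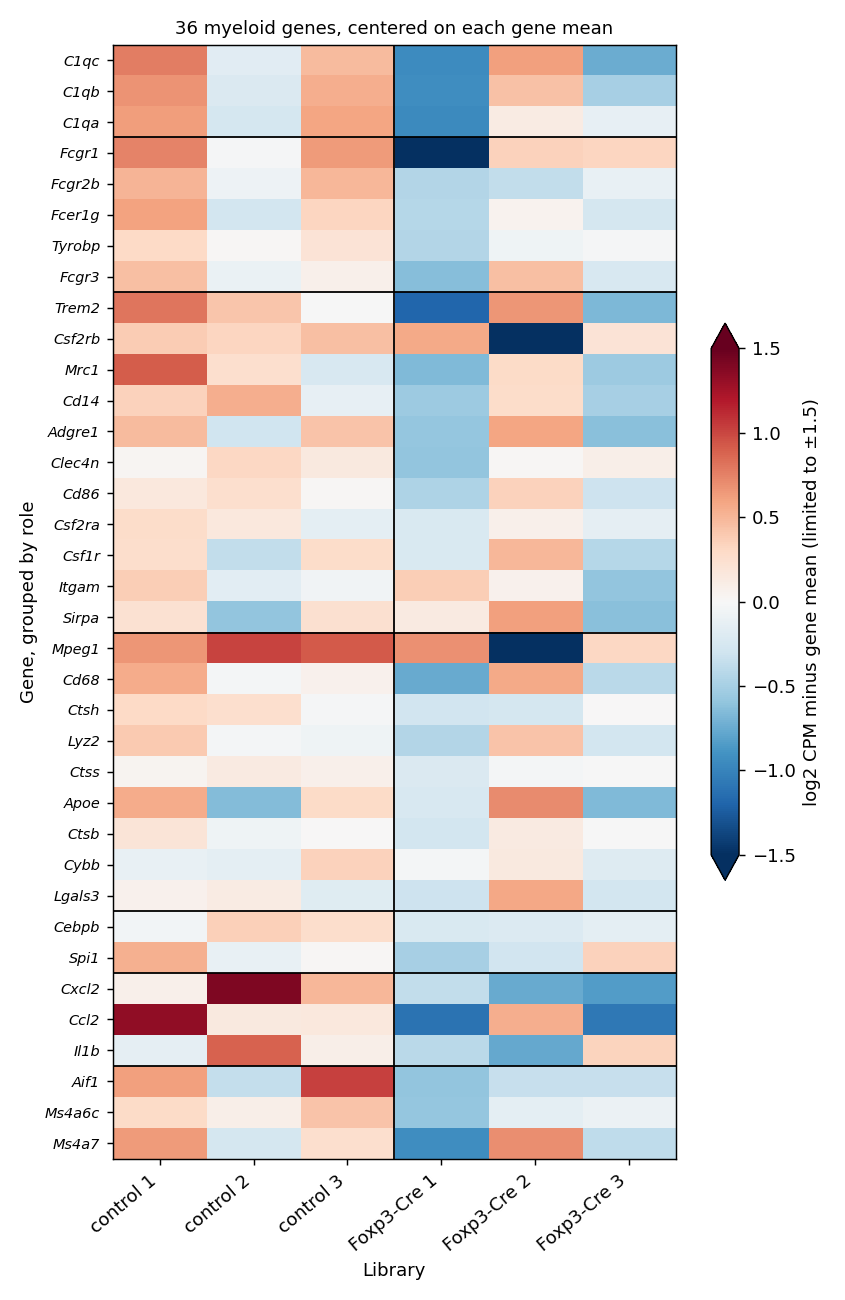
Centered log2 CPM (color, value minus the gene's mean over 6 libraries, limited to ±1.5) of the 36 genes in rows by role and the 6 libraries in columns. The first *Nr3c1* Foxp3-Cre column is the lowest for 26 genes, while the second is the highest for 9 genes, among them *Cd68*, *Lyz2*, *Adgre1*, *Csf1r* and *Apoe*.

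Melanocyte markers and, below, some genes of a fibroblast list moved with these genes in part. The 7 melanocyte markers, which B16 cells express, summed to 9637, 3575 and 7219 CPM in control libraries and 6482, 10050 and 3945 CPM in *Nr3c1* Foxp3-Cre libraries. Their centered mean ordered 11 of the 15 library pairs as the C1q mean did. They differed most in *Nr3c1* Foxp3-Cre library 1, at 0.043 for melanocyte markers and -0.94 for the C1q genes. Of the 36 genes, 5 lay nearer to the melanocyte mean than to the C1q mean: *Apoe*, *Sirpa*, *Csf1r*, *Itgam* and *Cybb*. For *Apoe* the root mean square difference was 0.15 from the melanocyte mean and 0.39 from the C1q mean, and for *Sirpa* 0.20 and 0.53. In a fit that also held the melanocyte mean, added once the values were known, the median log2 fold change of the 36 genes was -0.37 and 9 had an unadjusted p under 0.05 by limma, all lower, against 2.60% of all genes. Of those 36, 34 had a log2 fold change below 0 in that fit, and limma called none of them at an adjusted p under 0.05.

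The fibroblast and endothelial list summed to between 238 and 504 CPM in control libraries and between 139 and 225 CPM in *Nr3c1* Foxp3-Cre libraries, without overlap. *Col1a1* was at 6.24, 5.07 and 5.80 log2 CPM in control libraries and 3.70, 4.25 and 3.56 in *Nr3c1* Foxp3-Cre libraries, a log2 fold change of -1.87 (SE 0.29, limma adjusted p = 0.120). The mean of *Col1a1*, *Col1a2*, *Col3a1* and *Dcn*, 4 genes picked from that list after their values were seen, ordered 14 of the 15 library pairs as the C1q mean. Pairs across the groups are included here too, so the lower values in *Nr3c1* Foxp3-Cre libraries raise this count. *Pecam1*, the endothelial gene of the same list that was left out of that mean, went the other way, at 5.48, 5.68 and 5.56 log2 CPM in control libraries and 5.97, 5.85 and 5.74 in *Nr3c1* Foxp3-Cre libraries (log2 fold change 0.28, SE 0.12, limma unadjusted p = 0.0436), without overlap and with 2 of the 15 pairs ordered as in the C1q mean. *Pdgfra*, also left out, was at its library's floor of -3.96 in *Nr3c1* Foxp3-Cre library 2. The Treg and T cell markers ordered only 3 of the 15 pairs in that way, with their lowest centered mean, -0.27, in control library 1 and their highest, 0.26, in control library 2. Genes of MHC class II summed to 1469 to 1585 CPM in control libraries and 1425 to 1537 CPM in *Nr3c1* Foxp3-Cre libraries, a sum made up mostly of *Cd74*, the invariant chain, with a log2 fold change of 0.0032. The other 6 of these 7 genes had log2 fold changes below 0, and the median of all 7 was -0.17. *H2-Aa* was at -0.44 (SE 0.16, limma unadjusted p = 0.0209) with overlap, and the groups did not overlap for *H2-Ab1*, at -0.16 (SE 0.099). Over all genes, 1.65% were lower at an unadjusted p under 0.05 and 3.73% were lower without overlap. The part of these other cells in the myeloid values was not tested.

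**Figure D4:**
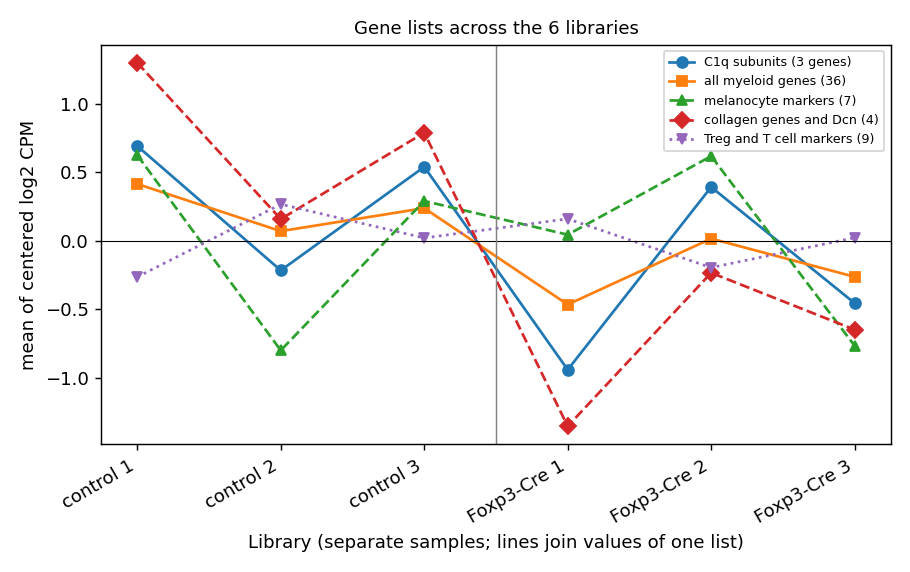
Mean of centered log2 CPM (y axis) in each of the 6 libraries (x axis) for the C1q genes, all 36 myeloid genes, melanocyte markers, collagen genes with *Dcn*, and Treg and T cell markers. The collagen genes and *Dcn* were picked from a longer list after their values were seen. The C1q line is lowest in *Nr3c1* Foxp3-Cre library 1 at -0.94, where the melanocyte line is at 0.043, and the T cell line has its lowest points, -0.27 and -0.20, where the melanocyte line is at 0.62.

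With all 6 libraries the median log2 fold change was -0.40, and the difference became larger without the second *Nr3c1* Foxp3-Cre library. Without it, all 36 genes had lower means in *Nr3c1* Foxp3-Cre Tregs, with a median log2 fold change of -0.52. In that fit 17 had an unadjusted p under 0.05 by limma, all lower, against 1.71% of all genes, and the groups did not overlap for 19, against 7.59% of all genes lower in that way. Those 19 included *C1qb*, *C1qc*, *Cd68*, *Lyz2*, *Adgre1*, *Cd14*, *Ccl2* and *Trem2*. Without *Nr3c1* Foxp3-Cre library 1 the median was -0.27 and 3 genes had an unadjusted p under 0.05, against 1.94% of all genes lower. That count was 2 without control library 1 (1.52% of all genes lower) and 10 without control library 2 (2.34%). In none of these fits did limma call one of the 36 genes at an adjusted p under 0.05.

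Wider lists of myeloid genes were read in the same way, and limma called none of their genes at an adjusted p under 0.05. Of 21 further macrophage genes, 18 had log2 fold changes below 0 with a median of -0.47, and 4 had an unadjusted p under 0.05, all lower, where 1.65% of all genes were lower at that level. *Siglec1*, the sialoadhesin of tissue macrophages, was at -3.96, its library's floor, in *Nr3c1* Foxp3-Cre library 2. Of 14 further cytokine and chemokine genes, 13 had log2 fold changes below 0 with a median of -0.59, and 6 had an unadjusted p under 0.05, 5 of them lower (1.65% of all genes) and 1 higher (1.61% of all genes). *Ccl8*, which is related to *Ccl2*, was at 5.83, 4.76 and 5.30 log2 CPM in control libraries and 3.54, 4.77 and 4.25 in *Nr3c1* Foxp3-Cre libraries, with all 15 library pairs ordered as in the C1q mean. *Tnf* was the higher one, at 3.68, 3.69 and 3.67 against 4.31, 4.09 and 4.83, with a log2 fold change of 0.72 (SE 0.22, limma unadjusted p = 0.00806); T cells make it too. *Siglec1*, *Ccl8*, *Tnf* and, below, *Tlr7* were named after their values were seen, as were *Pecam1* and *Pdgfra* above. Of 16 further monocyte genes 12 had log2 fold changes below 0, with a median of -0.18, and 2 were lower at an unadjusted p under 0.05. All 12 further lysosomal genes had log2 fold changes below 0, with a median of -0.19, and 1 was lower at that level. The 14 phagocyte kinase, oxidase and toll-like receptor genes split into 7 and 7 with a median of 0.00055, and 1 of them, *Tlr7*, was higher at that level without overlap, at a log2 fold change of 0.85 (SE 0.36, limma unadjusted p = 0.0408).

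Genes outside the list with centered values among the 10 nearest to the C1q mean over the 6 libraries included *Htra3*, *C3ar1*, *Tmem171*, *Mgst1*, *Rec114*, *Hsf4*, *Foxp2*, *Spp1* and *Maoa*. Their root mean square differences ran from 0.16 for *Htra3* to 0.24 for *Maoa*. *C3ar1*, the receptor for complement C3a, was at 3.87, 3.04 and 3.53 log2 CPM in control libraries and 2.28, 3.79 and 2.44 in *Nr3c1* Foxp3-Cre libraries. *Spp1*, osteopontin, was at 7.98, 7.31 and 7.72 against 6.97, 7.78 and 7.01.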

How the data were processed

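RNA-Seq was read from 6 libraries, grouped by the genotype in the sample labels. Per the study's methods the authors used Cutadapt for trimming, STAR for alignment to mm10 and RSEM with GENCODE M21 for gene counts, dropped genes under 1 CPM, and quantile normalized before running voom. The table they deposited is in log2 CPM, one value per gene and library. Read depth is unknown, so no counting interval is given, and the number of libraries limits the precision. Quantile normalization gives the libraries one distribution, so values are relative to the other genes of a library.

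Limma 3.58.1 (R 4.3.3) was run on all 12153 genes, using lmFit with genotype alone and eBayes with its trend option, with p-values adjusted by Benjamini-Hochberg across the table and a threshold of 0.05. The voom weights need counts and were not used. The fit was tested on simulated data. Exon lengths and positions came from GENCODE M21 on mm10.

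The genes, lists and tests were chosen with earlier results of these data known. Values in every library are given for the 10 defining genes, *Itgam*, genes with an unadjusted p under 0.05 or groups that do not overlap, and the 5 largest log2 fold changes. Outside the list, the 10 genes most like the C1q mean are named, except for an item not reported here. Alternatives were eBayes without its trend, robust eBayes, weights for sample quality, dropping genes whose mean log2 value is under 1, log2(CPM + 1), centering on the median of genes at or above 5 log2 CPM, the replicate number as a block, leaving out each library, and a melanocyte term added after seeing the data.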

Additional observations from a re-analysis of the deposited data

How the results depend on the processing

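Limma called none of the 36 genes at an adjusted p under 0.05 in any of the 14 alternatives. The median log2 fold change stayed below 0 in each of them, with -0.52 and -0.27 as its extremes when single replicates were left out. Over the whole table, 0 genes were called higher and 0 lower both without a mean-variance trend (469 at an unadjusted p under 0.05) and under the replicate block (275 at an unadjusted p under 0.05). Sample quality weights called 7 higher and 12 lower, and the melanocyte covariate 4 higher and 14 lower. Fits without one replicate called 0 to 3 genes higher and 0 to 5 lower.

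Of the 36 genes, 12 had an unadjusted p under 0.05 with sample quality weights (11.3% of all genes did) and 3 with the replicate block (2.26% of all genes). Over the fits without one replicate that count was from 2 to 17. It was lowest without control replicate 1 (3.18% of all genes) and highest without *Nr3c1* Foxp3-Cre replicate 2 (3.07% of all genes). The number of genes whose groups did not overlap was from 8 to 19 in those fits, all lower, where one group has 2 libraries and 6.45% to 9.96% of all genes were lower without overlap. The number with a log2 fold change above 0 was from 0 to 6 in those fits and 2 with the melanocyte covariate.

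Signs turned for some genes near 0. Sample quality weights gave *Lgals3* a log2 fold change of 0.092 and *Sirpa* one of -0.20, and the melanocyte covariate gave *Lgals3* one of 0.012. Over the fits without one replicate it ran from -0.30 to 0.15 for *Lgals3*, from -0.20 to 0.41 for *Sirpa*, from -0.52 to 0.17 for *Apoe*, from -0.32 to 0.17 for *Itgam*, from -0.38 to 0.081 for *Csf1r*, from -0.14 to 0.11 for *Cybb* and from -0.19 to 0.016 for *Ctsb*. Of 503 values for single genes, 485 kept their sign and 18 reversed. The cause was not tested. The minimum mean value removed *Mpeg1*. Same-numbered libraries had correlations of their deviations of -0.12, -0.33 and -0.025 across genes. These values gave no sign of pairing by number, but with 3 libraries per group they cannot exclude it.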

Other observations

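Neutrophil, B cell and CD8 T or NK cell lists had few genes with a row. Of 8 neutrophil markers only *Mmp9* had one, of 6 B cell markers *Cd79b* and *Ighm*, and of 6 markers of CD8 T and NK cells *Cd8b1*. *Ighm*, the heavy chain of IgM, was between 9.12 and 9.68 log2 CPM in the 6 libraries, and the B cell pair summed to between 582 and 839 CPM. *Cd79b* was between 3.82 and 4.55 log2 CPM. *Mmp9* was between 4.83 and 5.56 log2 CPM and *Cd8b1* between 2.93 and 3.96. The groups overlapped for each of these 4 genes.

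Of 10 dendritic cell markers 7 had a row, with a median log2 fold change of 0.16. Limma called none of them at an adjusted p under 0.05. The single gene with an unadjusted p under 0.05 was *Ccr7*, which T cells and migrating dendritic cells both express. Over all genes, 1.65% were lower at that level and 3.73% were lower without overlap. *Ccr7* was at 7.05, 7.50 and 7.07 log2 CPM in control libraries and 6.95, 6.63 and 6.20 in *Nr3c1* Foxp3-Cre libraries, without overlap, and the log2 fold change was -0.61 (SE 0.19, limma unadjusted p = 0.0108).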
